A study of Mus musculus with 9 samples.

Results

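The mouse genes for the proteins of the mitochondrial ribosome were described in 4 sorted populations of the growing hair follicle. Members were taken by name, as every row of the deposited gene tables whose symbol is Mrpl or Mrps followed by a number, without the pseudogene rows. The rule found 77 of 46609 gene rows, of which 50 encode proteins of the large subunit and 26 of the small subunit, while Mrps36 belongs to neither. All 77 passed the filter on low counts, and the lowest member had 124 counts in its lowest library. The rule uses no expression value, though it was chosen with earlier results of these data known.

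The mitochondrial ribosome translates the few proteins that mitochondrial DNA encodes, all of them parts of the respiratory chain or of ATP synthase. Its RNAs are transcribed in the mitochondrion, but every one of its proteins is encoded in the nucleus, made in the cytosol and imported. Some of these proteins have bacterial counterparts and others arose in mitochondria. By that division 48 members have a bacterial counterpart and 29 do not.

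RNA was sequenced from suprabasal cells of the hair bulb (suprabasal HB, 2 libraries), which differentiate into the hair shaft and its inner sheath, and from the bulb's basal layer (basal HB, 2 libraries), which include its proliferating progenitors. The other populations were the outer root sheath (ORS, 2 libraries), the layer that surrounds the follicle, and hair follicle stem cells (HFSC, 3 libraries), which reside in the bulge. All came from back skin of mice at postnatal day 30, in the last stage of follicle growth, and were sorted on CD34, Sca-1, P-cadherin, the integrins α6 and β1, and GFP. The strain label was Lhx2-GFP (CD1) for every library, the extraction text names K14-H2BGFP mice, and the sex label was "Mixed". Gates, the number of mice and the separateness of the animals are not given in the sources used here, so p-values measure the spread between these samples. In bulk RNA, fewer cells of a type and less RNA per cell cannot be told apart.

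Total counts were 45438637 and 50752545 in the suprabasal HB libraries and between 60990600 and 88596741 in basal HB and ORS, and between 25098237 and 29902799 in HFSC. Summed markers of HFSC and of both bulb populations were highest in the population they mark, whereas 3 keratin markers of the ORS were highest in HFSC. By counts scaled to library size, some single markers went the other way. Both suprabasal HB libraries lay above both basal HB libraries for 2 of 4 basal HB markers. They lay below them for 1 of 5 suprabasal HB markers. For 2 of 6 HFSC markers both basal HB libraries lay above all HFSC libraries. Melanocyte markers, from pigment cells of the bulb, summed to 11598 and 12829 TPM in suprabasal HB and 2475 and 3085 TPM in basal HB, against 91.8 and 347 TPM in ORS and 105 to 136 TPM in HFSC. TPM is the authors' transcript level, corrected for length and scaled to the same sum in each library.

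Per length, the mean level of the 77 genes over the 9 libraries had a median of 65.3 TPM, with quartiles at 40.6 and 78.2 TPM. The highest members were Mrpl52 at 202 TPM, Mrpl20 at 143 TPM, Mrpl30 at 142 TPM and Mrps21 at 139 TPM. The lowest were Mrpl35 at 13.96 TPM, Mrpl1 at 15.4 TPM, Mrpl23 at 20.6 TPM and Mrpl11 at 21.4 TPM. The ratio of a member's highest to its lowest library had a median of 1.54 and was under 2 in 71 members. Its largest value, 10.01, was that of Mrpl23, described further on.

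**Figure D1:**
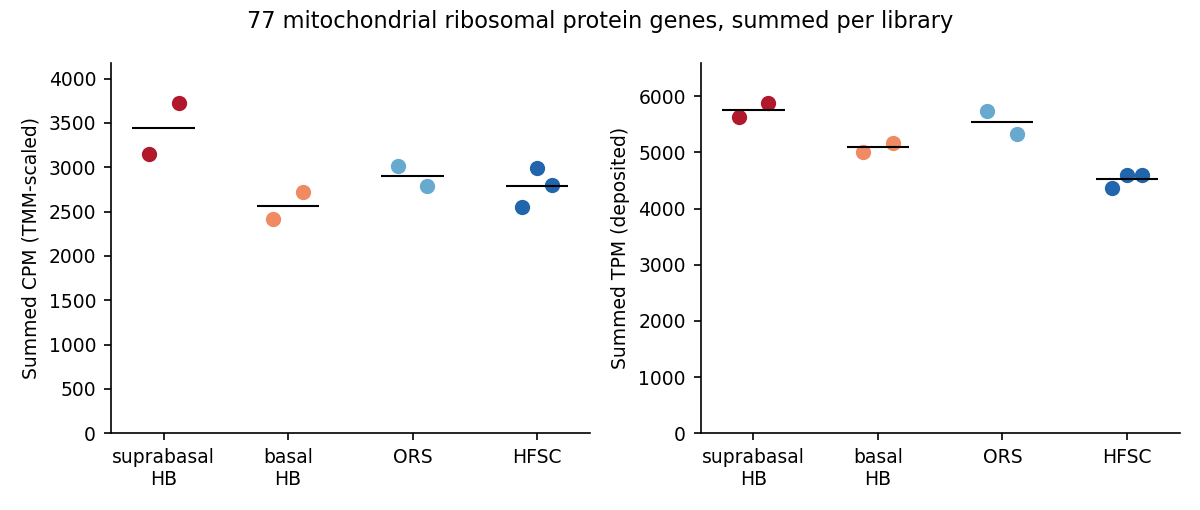
Summed level of the 77 mitochondrial ribosomal protein genes in each library, on the CPM scale (left) and the TPM scale (right), for suprabasal HB, basal HB, ORS and HFSC. Points are libraries and lines are means. Both suprabasal HB libraries lie above both basal HB libraries on both scales, whereas the HFSC libraries lie among the others in CPM and below all others in TPM.

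Suprabasal bulb cells carried more RNA for mitochondrial ribosomal proteins than basal bulb cells. The summed members made up 3148 and 3728 CPM in suprabasal HB, against 2416 and 2717 CPM in basal HB. CPM is the read count scaled to library size by TMM, with no correction for length. The suprabasal libraries were thus both above the basal ones, and they stayed so in TPM, with 5625 and 5886 in suprabasal HB against 5011 and 5169 in basal HB. In edgeR's quasi-likelihood test, adjusted over all 20491 genes tested, 46 of the 77 members rose and 0 fell at the threshold of 0.05. Among all genes tested 13.1% rose and 14.8% fell. At an unadjusted p under 0.05 the members counted 69 higher and 0 lower, against 19.5% and 20.1% of all genes. The median log2 change was 0.44 over the members and 0 over all genes. All 77 log2 changes were above 0, between 0.12 and 0.77, and in 73 members both suprabasal libraries lay above both basal ones and in 0 below them, against 33.9% and 34.6% of all genes.

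Members of both subunits rose. Of the large subunit, 27 of 50 members rose, with a median log2 change of 0.45, and of the small subunit 18 of 26, with a median of 0.42. Members with a bacterial counterpart had a median of 0.44, with 28 of 48 called, and those without one also had a median of 0.44, with 18 of 29 called. Mrps36, now known mainly as a component of the oxoglutarate dehydrogenase complex, was the other member called.

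**Figure D2:**
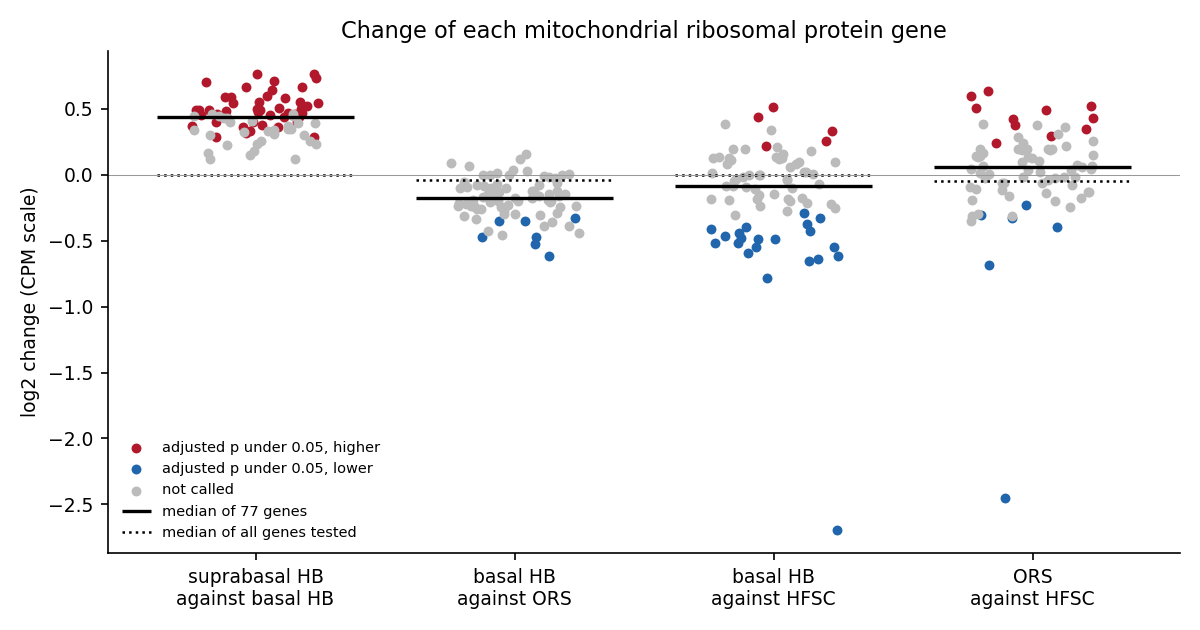
The log2 change on the CPM scale of each of the 77 genes in the 4 comparisons, with calls at an adjusted p under 0.05 in colour. Solid lines are medians of the 77 genes and dotted lines are medians of all genes tested. All points lie above 0 in suprabasal HB against basal HB, and Mrpl23 is the lowest point in both comparisons with HFSC.

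Mrpl55, a large-subunit protein encoded at chr11:59202486-59206134 (GRCm38, plus strand), had the largest increase. It had 16.2 and 19.3 CPM in suprabasal HB, against 10.3 and 10.5 CPM in basal HB. The 2 populations did not overlap, and the log2 change was 0.77 ± 0.18 (SE; edgeR, adjusted p = 0.015). Mrpl12, at chr11:120484613-120489065 on the plus strand, encodes the stalk protein of the large subunit, which is also known to bind the mitochondrial RNA polymerase. It had 83.6 and 107.8 CPM in suprabasal HB, against 51.2 and 61.3 CPM in basal HB, again without overlap, for a log2 change of 0.77 ± 0.16 (SE; edgeR, adjusted p = 0.0077). Among the 6 leading members it was the most abundant in CPM.

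Mrps33 and Mrps24, both of the small subunit, followed. Mrps33, at chr6:39801804-39810988 on the minus strand, had 34.8 and 42.3 CPM in suprabasal HB, against 21.2 and 25.2 CPM in basal HB (log2 change 0.73 ± 0.17 SE; edgeR, adjusted p = 0.012). Mrps24, at chr11:5703983-5715680 on the minus strand, overlaps Urgcp on the same strand. It had 37.9 and 44.9 CPM in suprabasal HB, against 23.2 and 27.4 CPM in basal HB (log2 change 0.71 ± 0.13 SE; edgeR, adjusted p = 0.0046). Both genes were higher in each suprabasal library than in either basal one, and Mrps24 alone among the 6 leading members kept its call under all 20 alternative settings.

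Mrpl41, a protein without a bacterial counterpart that has been reported to bind Bcl2 in human cells, is encoded at chr2:24974117-24975098 on the minus strand. It had 26.3 and 31.1 CPM in suprabasal HB, against 16.4 and 18.8 CPM in basal HB (log2 change 0.70 ± 0.15 SE; edgeR, adjusted p = 0.0089). Mrps18c, at chr5:100798627-100804471 on the plus strand, is a member of a small family of related proteins that share a bacterial counterpart. It had 21.3 and 25.5 CPM in suprabasal HB, against 13.8 and 15.7 CPM in basal HB (log2 change 0.67 ± 0.17 SE; edgeR, adjusted p = 0.019). Of the 25-base words of its transcripts, 39.6% for Mrps18c, 24.5% for Mrpl41, 20.5% for Mrpl12, 19.5% for Mrps24 and 16.4% for Mrps33 occur in transcripts of other genes, so the counts of these 5 are less certain than those of Mrpl55, with 0.094%.

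**Figure D3:**
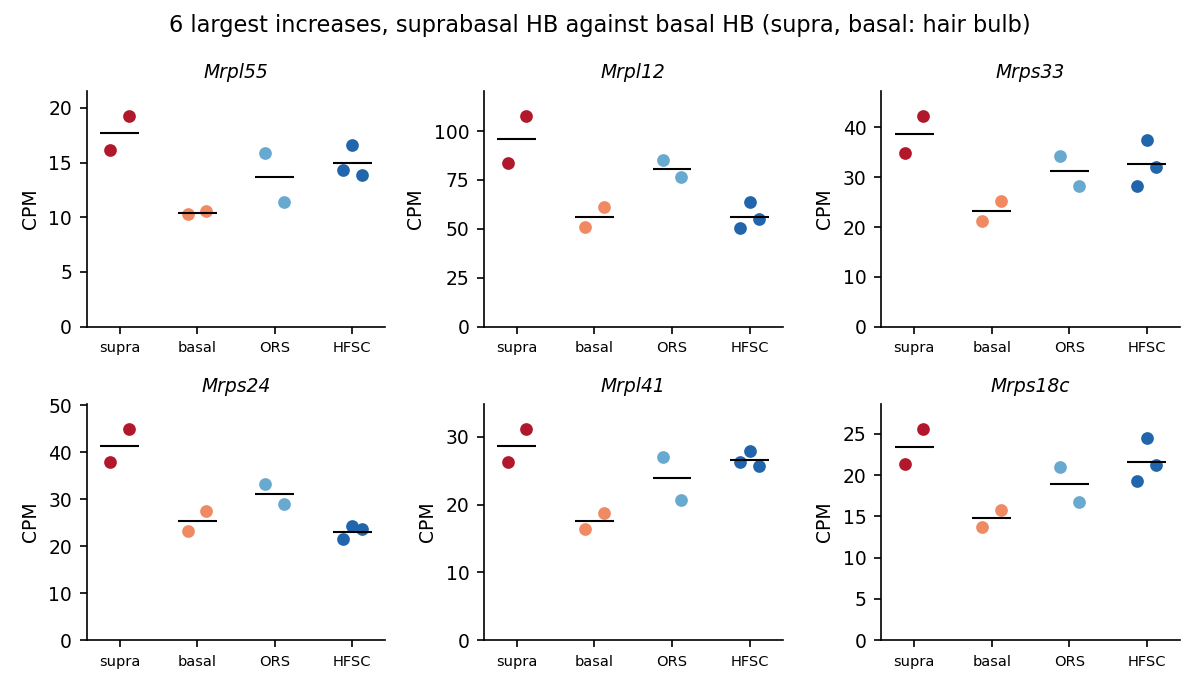
CPM of the 6 members with the largest increase in suprabasal HB against basal HB, in each library of the 4 populations. Points are libraries and lines are means. In all 6 panels the suprabasal HB points lie above the basal HB points, and in each panel except Mrps24 and Mrpl12 the HFSC points also lie above basal HB.

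The 31 members that did not pass the test were also higher in suprabasal HB, with adjusted p between 0.050 and 0.70. In 4 of them the libraries of the 2 populations overlapped. Mrps31 had the smallest log2 change, 0.12 ± 0.15 (SE), with 20.7 and 25.6 CPM in suprabasal HB against 20.2 and 22.4 CPM in basal HB. Mrps10 had 36.4 and 40.6 CPM in suprabasal HB, against 36.7 and 34.1 CPM in basal HB. The others were Mrpl33 and Mrpl23. These 4 were picked out after their values were seen.

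The number of calls depended on single libraries and on the scale. Without basal HB replicate 1 it was 2 of 77, without suprabasal HB replicate 2 it was 3, without basal HB replicate 2 it was 14 and without HFSC replicate 3 it was 22. Of all genes 4.08%, 6.36%, 5.91% and 10.1% were then called higher in the same order, so the members' shares of 2.60% and 3.90% in the first 2 settings lay below the background, while 18.2% and 28.6% in the others lay above it. The median log2 change of the members was then 0.33, 0.26, 0.52 and 0.40 in the same order, and all 77 log2 changes were above 0 except without suprabasal HB replicate 2, where 75 were. On the TPM scale, log2(TPM + 1) tested with limma, 12 members, or 15.6%, rose, against 5.36% of all genes, 0 fell and 67 had a log2 change above 0. There the median of all genes lay at −0.16 and that of the members at 0.16, or 0.32 above it. With TPM centred on the genes' median, 24 rose, or 31.2%, against 9.86% of all genes, and all 77 were above 0. Each of the 6 leading members kept its call on both TPM scales, with log2 changes between 0.43 and 0.50 in TPM uncentred.

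Melanocyte markers moved with this comparison. Of 10 markers, 9 rose and Gpnmb fell, and none was at 0. Pmel, a structural protein of pigment granules, was 16.7-fold higher in suprabasal HB, and Dct, an enzyme of melanin synthesis, was 12.8-fold higher (edgeR). Of 4 basal HB markers 2 fell and 0 rose, and of 5 suprabasal HB markers 4 rose and 1 fell, at a log2 change of −2.68. Of 10 dermal fibroblast and papilla markers 2 rose and 3 fell. Of 6 endothelial and blood markers 0 rose and 1 fell, and of 4 immune markers tested 0 rose and 1 fell. The part of melanocytes or of other cell types in the members' change was not tested.

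Transcript length also moved with this comparison. The members are short, with a median length of 990 bases against 2152 for all genes tested, and 60 of 77 lie between 500 and 1500 bases. Short genes as a whole were higher in suprabasal HB: the median log2 change of all genes was 0.17 at 500 to 1000 bases, 0.13 at 1000 to 1500 bases and −0.23 above 5000 bases. In the same 2 shorter classes the members had medians of 0.46, over 38 genes, and 0.36, over 22 genes. The 7 members of 2000 to 3000 bases had a median of 0.34, where all genes lay at −0.01. With the trend on length removed, 19 members, or 24.7%, rose and 0 fell, against 12.3% and 14.2% of all genes. The members' median then lay 0.29 above that of all genes.

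**Figure D4:**
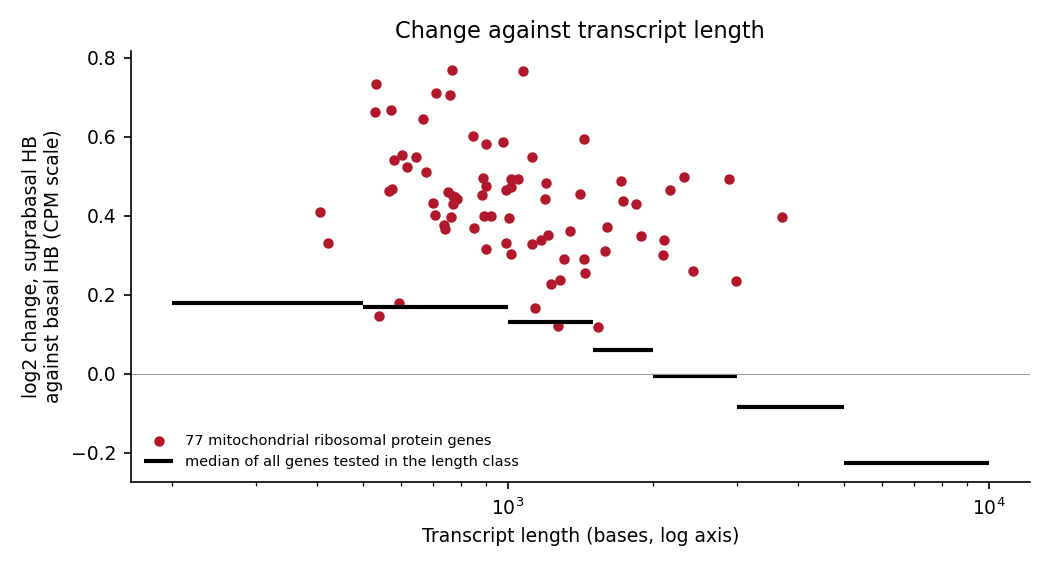
The log2 change on the CPM scale, suprabasal HB against basal HB, of each of the 77 genes (points) against transcript length in bases on a log axis. Bars are medians of all genes tested in 7 length classes, the outer classes being open-ended. The bars fall with length, and all points but Mrpl23 and Mrps10 lie above the bar of their class.

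Since the members moved together, their promoters were searched for short motifs of factors known to act on nuclear genes for mitochondrial proteins. Promoters from RefSeq (GRCm38.p6), 250 bases before to 50 after the RefSeq start, were found for 68 of the 77 members. Of these, 25 held CCGGAAG, the core of the ETS family to which Gabpa belongs, in either direction, or 36.8%, compared with 9.93% of all promoters in the table and 13.4% of those of protein-coding genes. The Yy1 motif AAGATGGC was in 12 members, or 17.6%, compared with 3.19% of all promoters. The Nrf1 core GCATGCGC was in 8, or 11.8%, compared with 3.05%. An E-box, CACGTG, was in 5 members, or 7.35%, against 8.09% of all promoters, and TATAAA was in 5, or 7.35%, against 15.7%. Both strands were read. The ETS and Yy1 motifs can share the letters AAG, and no motif contains another. None of the 5 was found in 26 members. The ETS core was in 17 of the 43 matched members that rose, or 39.5%, and in 8 of the 25 that did not pass the test, or 32.0%. The Nrf1 core was in 3 of the 43 and 5 of the 25, and the Yy1 motif in 8 of the 43 and 4 of the 25.

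The 3 stretches below show where such a motif stands in members that rose. Of the 43 matched members that rose, 11 hold an ETS, Nrf1 or Yy1 motif in the 100 bases before the RefSeq start, and in 3 of these the stretch lies wholly before the gene as GENCODE annotates it. They were picked after the motifs had been located. Capitals mark the motif, and each is printed in the direction of transcription.
Mrpl34, chr8:71464826-71464925, plus strand: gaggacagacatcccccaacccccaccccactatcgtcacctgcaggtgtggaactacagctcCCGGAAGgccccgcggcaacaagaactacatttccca
Mrps22, chr9:98601680-98601779, minus strand: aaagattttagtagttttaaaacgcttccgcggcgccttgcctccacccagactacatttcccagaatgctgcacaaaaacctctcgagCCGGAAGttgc
Mrps27, chr13:99344686-99344785, plus strand: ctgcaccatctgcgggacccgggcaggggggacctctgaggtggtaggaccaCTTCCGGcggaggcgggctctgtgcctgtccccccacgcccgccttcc

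In Mrpl34 and Mrps22 the ETS core reads in the direction of transcription, whereas in Mrps27, a small-subunit protein without a bacterial counterpart, it stands reversed. Mrpl34 and Mrps22 return in the comparisons with HFSC. Of the 6 members with the largest increase, Mrps33 and Mrps18c hold the ETS core somewhere in the window and Mrps24 the Yy1 motif, while Mrpl55, Mrpl12 and Mrpl41 hold none of the 5 motifs. A match is a string of letters and does not show that a factor binds there.

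Basal bulb cells had less RNA than the ORS for a few members. In basal HB against ORS 7 members fell and 0 rose (edgeR, adjusted p under 0.05), where 14.7% of all genes fell and 15.8% rose, so the members' share was below the background in both directions. At an unadjusted p under 0.05 the counts were 16 lower, or 20.8%, and 0 higher, against 20.1% and 19.8% of all genes. The median log2 change was −0.18 for the members and −0.04 for all genes, and 68 of the 77 were below 0. In 42 members both basal HB libraries lay below both ORS libraries, and in 1 they lay above, against 35.9% and 31.5% of all genes. Mrpl14, a core protein of the large subunit, fell most. It had 13.6 and 14.6 CPM in basal HB, against 20.3 and 22.8 CPM in ORS, for a log2 change of −0.61 ± 0.12 (SE; edgeR, adjusted p = 0.0053). Mrpl12 had 51.2 and 61.3 CPM in basal HB, against 76.3 and 85.2 CPM in ORS (log2 change −0.52 ± 0.16 SE; edgeR, adjusted p = 0.034).

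Mrpl13, Mrpl51, Mrpl49, Mrps17 and Mrps5 completed the 7, with log2 changes between −0.48 and −0.33, and in each the libraries of the 2 populations did not overlap. Mrpl14, Mrpl13 and Mrpl49 overlap the protein-coding genes Tmem63b, Mtbp and Syvn1 on the opposite strand, and the counting strand is not given in the sources used here. Without HFSC replicate 3 the number of members lower was 3, or 3.90%, against 11.7% of all genes. The members' median log2 change was −0.08 without basal HB replicate 1 and −0.27 without basal HB replicate 2. All genes had a median of −0.04 in both of these settings. The members' median was −0.12 without ORS replicate 1 and −0.25 without ORS replicate 2, against −0.04 and −0.0075 for all genes. These fits leave 1 library in a population, so only the change is given. On the TPM scale the number of members lower was 11, or 14.3%, against 10.3% of all genes.

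Against stem cells, the bulb and sheath showed a mixed picture that turned on the scale. In ORS against HFSC 11 members rose and 6 fell, against 18.1% and 23.8% of all genes. Both shares of the 77 were below the background. All ORS libraries lay above all HFSC libraries in 28 members and below them in 9, against 28.3% and 33.5% of all genes. Upper-quartile scaling gave 21 higher and 3 lower, against 21.2% and 21.1% of all genes. TPM gave 50 and 2, against 29.2% and 13.4%, and TPM centred gave 26 and 3, against 20.8% and 22.3%. The members' median lay 0.11 above that of all genes in CPM and 0.20 above it in TPM, where the median of all genes itself stood at 0.13. Without HFSC replicate 2 the counts were 22 and 2, against 20.9% and 19.1% of all genes. They were 11 and 3 without HFSC replicate 1, against 18.3% and 17.5%, and 15 and 2 without HFSC replicate 3, against 18.6% and 17.8%. The members' median minus that of all genes was 0.065 without ORS replicate 1 and 0.15 without ORS replicate 2. It was 0.11 without suprabasal HB replicate 2. These last fits leave 1 library in a population, so only the change is given.

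In basal HB against HFSC 5 members rose and 21 fell, against 22.8% and 26.1% of all genes, so the share lower, 27.3%, was near the background. All basal HB libraries lay above all HFSC libraries in 11 members and below them in 26, against 34.6% and 35.2% of all genes. Upper-quartile scaling gave 11 higher and 13 lower, against 28.9% and 21.6% of all genes. TPM gave 41 and 5, against 38.7% and 14.7%, and TPM centred gave 19 and 10, against 25.6% and 24.2%. The members' median was 0.08 below that of all genes in CPM and 0.04 above it in TPM, where all genes stood at 0.21, so no direction of the members as a group held across the scales. Without HFSC replicate 2 the counts were 13 and 7, against 27.3% and 20.1% of all genes. They were 7 and 15 without HFSC replicate 1, against 25.3% and 19.1%, and 7 and 6 without HFSC replicate 3, against 25.4% and 19.1%. Without basal HB replicate 1 the members' median minus that of all genes was −0.006, and without basal HB replicate 2 it was −0.15. It was −0.09 without suprabasal HB replicate 2 and −0.085 without either ORS library. Each of these fits leaves 1 library in a population, so only the change is given. Both comparisons share the HFSC libraries. Markers of other cell types moved with them. In ORS against HFSC 6 of 10 dermal fibroblast and papilla markers fell and Dcn rose, and 4 of 6 endothelial and blood markers fell and 0 rose, with median log2 changes of −1.31 and −1.14. In basal HB against HFSC 2 of the 10 dermal markers rose and 2 fell, 3 of the 6 endothelial and blood markers fell, and 10 of 10 melanocyte markers rose. The dermal markers summed to 1309 and 1562 TPM in basal HB and 717 and 1123 TPM in ORS, against 1103 to 1741 TPM in HFSC. The endothelial and blood markers summed to 52.3 and 68.0 TPM in basal HB and 56.1 and 61.7 TPM in ORS, against 129.6 to 195 TPM in HFSC, and no marker of either list was at 0 in any library. Their part in the members' change was not tested. Within the 77, the change in CPM followed transcript length, with a Spearman coefficient of 0.52 for ORS and 0.51 for basal HB, each set against HFSC, across genes that share their libraries. Over all genes tested the coefficients were 0.061 and 0.095 in the same order. Members of 500 to 1000 bases had median log2 changes of −0.05 for ORS and −0.26 for basal HB, and those of 1500 to 2000 bases had 0.30 and 0.14 in the same order.

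Mrpl34 and Mrpl3, both large-subunit proteins with bacterial counterparts, had the largest 2 increases in basal HB against HFSC, and both were called higher in ORS against HFSC too. Mrpl34, at chr8:71464959-71465747 on the plus strand, had 23.4 and 29.7 CPM in basal HB and 28.9 and 29.0 CPM in ORS, against 18.1, 18.2 and 19.7 CPM in HFSC. Its log2 change was 0.51 ± 0.16 (SE; edgeR, adjusted p = 0.025) in basal HB and 0.64 ± 0.16 (SE; edgeR, adjusted p = 0.011) in ORS. Over the 20 alternative settings the change in basal HB lay between 0.33 and 0.90. No other transcript shares a 25-base word with Mrpl34. All libraries of both populations thus lay above all 3 HFSC libraries, and suprabasal HB, at 32.0 and 45.7 CPM, stood higher still.

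Mrpl3, at chr9:105053239-105079888 on the plus strand, had 68.8 and 76.0 CPM in basal HB and 70.4 and 79.6 CPM in ORS, against 50.4, 54.1 and 55.8 CPM in HFSC. Again no library of HFSC reached the others. The log2 change was 0.44 ± 0.11 (SE; edgeR, adjusted p = 0.0084) in basal HB and 0.49 ± 0.11 (SE; edgeR, adjusted p = 0.0061) in ORS. In TPM it was larger, 1.05 and 1.08, from levels of 109 and 114 TPM in basal HB and 107 and 120 TPM in ORS, against 52.6 to 54.7 TPM in HFSC. Mrps30, a large-subunit protein despite its name, was called higher in both comparisons too, at a log2 change of 0.33 ± 0.12 (SE; edgeR, adjusted p = 0.040) in basal HB and 0.51 ± 0.11 (SE; edgeR, adjusted p = 0.0078) in ORS. Over the 20 alternative settings the change in basal HB lay between 0.37 and 1.06 for Mrpl3 and between 0.24 and 0.72 for Mrps30.

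Mrps22, of the small subunit, and Mrpl12 rose in ORS against HFSC, at log2 changes of 0.60 ± 0.14 and 0.52 ± 0.14 (SE; edgeR, adjusted p = 0.0094 and 0.018). Mrps24 had 28.9 and 33.2 CPM in ORS, against 21.5, 23.6 and 24.2 CPM in HFSC, and passed as well. Basal HB against HFSC gave no call for these 3, and of them only Mrpl12 was called in basal HB against ORS. Mrpl12 had 51.2 and 61.3 CPM in basal HB, within its range of 50.4, 55.0 and 63.5 CPM in HFSC. Mrpl4 and Mrpl38 rose in basal HB against HFSC, by 0.26 ± 0.09 and 0.22 ± 0.08 on the log2 scale (SE; edgeR, adjusted p = 0.044 and 0.042). Over the 20 alternative settings their changes lay between 0.19 and 0.65 and between 0.16 and 0.63 in the same order.

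Of the named members that fell, only Mrpl24 and Mrpl48, in ORS against HFSC, changed direction in any of the 20 alternative settings. Mrps21, a small-subunit protein with a bacterial counterpart, had 24.1 and 28.6 CPM in basal HB and 24.2 and 27.4 CPM in ORS, against 37.2, 43.3 and 44.1 CPM in HFSC. Its log2 change was −0.66 ± 0.15 (SE; edgeR, adjusted p = 0.0072) in basal HB and −0.69 ± 0.15 (SE; edgeR, adjusted p = 0.0072) in ORS. Mrpl51 had 39.5 and 42.5 CPM in basal HB, against 62.6, 67.7 and 81.6 CPM in HFSC, a log2 change of −0.79 ± 0.12 (SE; edgeR, adjusted p = 0.00084). Mrpl14, Mrpl42 and Mrpl41 were lower in basal HB by 0.64, 0.61 and 0.60 on the log2 scale. In ORS against HFSC, by contrast, Mrpl48 and Mrpl24 were called lower in CPM, at −0.32 and −0.30, but had log2 changes of 0.44 and 0.07 in TPM. Mrpl33 and Mrpl10 lost their call in TPM. With TPM centred Mrpl10 kept it, at a log2 change of −0.27 (limma, adjusted p = 0.011), and Mrpl33 did not, at −0.27 (limma, adjusted p = 0.17).

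Mrpl23 showed the largest difference of all members and is a case apart. The protein sits near the exit of the tunnel through which the new chain leaves the ribosome. Its row held 2.43 and 2.48 CPM in basal HB and 2.89 and 2.92 CPM in ORS, against 13.4, 14.1 and 20.3 CPM in HFSC. The log2 change was −2.70 ± 0.24 (SE; edgeR, adjusted p = 4.2e-05) in basal HB and −2.45 ± 0.24 (SE; edgeR, adjusted p = 0.00012) in ORS. A processed pseudogene, Mrpl23-ps1, lies on another chromosome at chr2:74591330-74591909 (minus strand), and its transcript matches that of Mrpl23 at 540 of 540 aligned bases, which include the whole coding sequence. The first 90 coding bases, with the start codon in capitals, show that reads from this stretch cannot be assigned to either gene by sequence.
Mrpl23, bases 167 to 256 of its transcript: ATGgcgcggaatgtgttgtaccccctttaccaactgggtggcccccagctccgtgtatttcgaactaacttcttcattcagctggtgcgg
Mrpl23-ps1, bases 18 to 107 of its transcript: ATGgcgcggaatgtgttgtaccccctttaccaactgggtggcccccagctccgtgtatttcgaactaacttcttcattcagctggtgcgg

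The pseudogene row took most of the counts outside HFSC. The share left to Mrpl23 was 7.65% and 8.21% in suprabasal HB, 10.3% and 9.21% in basal HB and 11.97% and 11.7% in ORS, against 68.0%, 41.6% and 40.9% in HFSC. The sum of both rows was far more even, at 34.2 ± 5.20 CPM in suprabasal HB, 25.3 ± 2.32 CPM in basal HB and 24.5 ± 0.17 CPM in ORS (SD, n = 2 each), against 32.2 ± 2.13 CPM in HFSC (SD, n = 3). A refit put the sum in place of the Mrpl23 row, and likewise the sum of Mrpl48 and its pseudogene row in place of Mrpl48. The log2 change of the Mrpl23 sum was −0.35 ± 0.12 (SE; edgeR, adjusted p = 0.035) in basal HB against HFSC and −0.39 ± 0.12 (SE; edgeR, adjusted p = 0.025) in ORS against HFSC. In suprabasal HB against basal HB the sum rose by 0.43 ± 0.13 on the log2 scale (SE; edgeR, adjusted p = 0.032), which brings the members that rose to 47. The deposited rows do not show which of the 2 genes the reads came from.

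**Figure D5:**
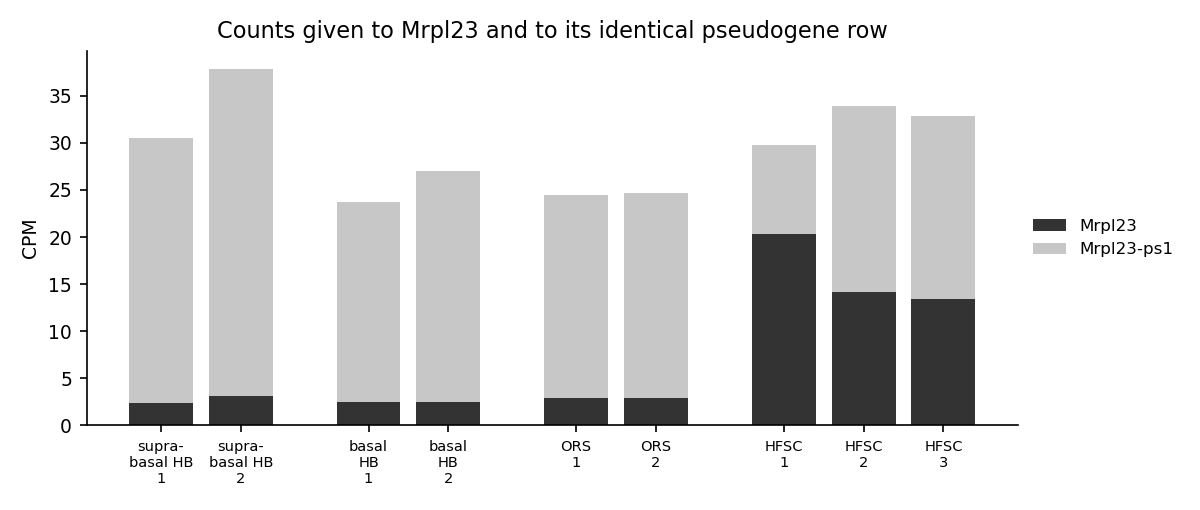
CPM given to Mrpl23 (dark) and to Mrpl23-ps1 (light) in each library, stacked, for suprabasal HB, basal HB, ORS and HFSC. The dark part is small in all libraries but those of HFSC, whereas the full height varies much less.

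Over all members, the share of 25-base words found in transcripts of other genes had a median of 7.78% and exceeded 20% in 16 of 77 members. Mrpl53, at 85.2%, Mrps34, at 74.7%, and Mrps25, at 69.1%, share most, mainly with the overlapping genes Gm42688, Mapk8ip3 and Nr2c2. Their counts are uncertain, and none of the 3 is among the leading members. In the annotation 35 members overlap a gene on the opposite strand.

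The rest of the mitochondrial translation system was also higher in suprabasal HB than in basal HB in part. Among all genes tested 13.1% rose and 14.8% fell. The lists that follow were not tested under the alternative settings or with libraries left out. Of 6 subunits outside the naming rule, 4 rose with a median log2 change of 0.41: Chchd1, Aurkaip1, Ptcd3 and Ict1, while Dap3 and Gadd45gip1 did not pass. Of 26 assembly factors 10 rose, with a median of 0.27. Fastkd2, an RNA-binding protein needed for the large ribosomal RNA, rose by 0.65 ± 0.11 and Mpv17l2 by 0.59 ± 0.12 on the log2 scale (SE; edgeR, adjusted p = 0.0028 and 0.0060). Of 15 translation factors and partners 5 rose, with a median of 0.20, among them Slirp, which stabilises mitochondrial messengers, and the elongation factors Tsfm and Gfm1. Of 17 aminoacyl-tRNA synthetases 6 rose, with a median of 0.28. None of these lists held a gene that fell.

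Genes that act on mitochondrial DNA and its transcription showed 4 of 15 higher and 0 lower, against 13.1% and 14.8% of all genes, with a median of 0.26. Those higher include Tfam, which packages the DNA, at 0.54 ± 0.12 (SE; edgeR, adjusted p = 0.011). Of the 15 mitochondrially encoded RNAs, 7 rose and 0 fell, with a median of 0.76. mt-Nd1, a subunit of respiratory complex I, rose by 0.94 ± 0.18 on the log2 scale (SE; edgeR, adjusted p = 0.0052), while the ribosomal RNAs mt-Rnr1 and mt-Rnr2 had 0.48 and 0.56 and did not pass. Of all counts, 4.36% fell on mitochondrially encoded genes in each suprabasal HB library, against 2.60% and 2.89% in basal HB. Of 11 regulators of mitochondrial biogenesis tested, 3 rose: Ppargc1a, a coactivator, to 2.53 and 3.31 TPM in suprabasal HB against 0.53 and 0.74 TPM in basal HB, Myc to 41.4 and 50.7 TPM against 24.2 and 24.4 TPM, and Mycn to 52.6 and 60.8 TPM against 45.8 and 48.1 TPM.

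In the comparisons with HFSC these lists were mixed as well. In ORS against HFSC 11 of 26 assembly factors rose and Mterf4 fell, and 8 of 11 regulators rose while Ppargc1a and Esrra fell. Of all genes 18.1% rose and 23.8% fell there. Mycn stood at 45.8 and 48.1 TPM in basal HB and 50.8 and 52.4 TPM in ORS, against 6.93 to 9.65 TPM in HFSC, and Mycl at 317 and 436 TPM in ORS, against 53.3 to 74.3 TPM in HFSC. Lars2, the mitochondrial leucyl-tRNA synthetase, went the other way, with 133 and 148 TPM in basal HB and 90.9 and 133 TPM in ORS, against 545, 581 and 642 TPM in HFSC. Its log2 change was −2.47 ± 0.17 in basal HB and −2.74 ± 0.17 in ORS (SE; edgeR, adjusted p = 1.3e-05 and 2.7e-05), and the libraries did not overlap.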

How the data were processed

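Per the submitters' processing notes, reads were aligned with Bowtie2 2.2.9 and quantified with RSEM 1.2.30 against mm10. The parameters and the counting strand are not given in the sources used here. The authors' deposited tables, 1 per library, hold RSEM expected counts, estimated read numbers that are not scaled for depth, and TPM, which the authors scaled for length and to the same sum in each library. The 9 FPKM columns and the 9 value columns of a table of the whole series were not used.

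Rounded expected counts entered edgeR 4.0.16 (R 4.3.3), with filterByExpr (20491 genes), TMM and 1 quasi-likelihood fit of all 9 libraries and 4 population means. The 2-sided F-tests were adjusted by Benjamini and Hochberg over all genes tested, with a threshold of 0.05. SE is the size of the log2 change divided by the root of F. The procedure was checked on simulated counts. Alternatives used limma 3.58.1 on log2(TPM + 1), with a pseudocount of 0.1 as well, and DESeq2 1.42.0. Positions and shared 25-base words came from GENCODE M21 (GRCm38), and Mrpl23 was aligned with Biopython. Members and lists were chosen with earlier results of these data known. Named members were the 6 largest called changes each way per comparison, called members moving against the majority, and the 4 highest and 4 lowest in mean TPM.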

Additional observations from a re-analysis of the deposited data

How the results depend on the processing

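The members' direction in suprabasal HB against basal HB held throughout in the sense that none was called lower. The number called higher, 46, was 30 with the replicate block, or 39.0%, against 11.6% of all genes. It was 12 in TPM with either pseudocount, or 15.6%, against 5.36% and 4.88%. With TPM centred it was 24, or 31.2%, against 9.86%, and with the length trend removed 19, or 24.7%, against 12.3%. Without single HFSC libraries it was 22 to 34, or 28.6% to 44.2%, against 10.1% to 12.1%. With other libraries left out in turn it also moved, as described above, and the members' median log2 change lay between 0.26 and 0.57. Between populations, libraries of the same replicate number had correlations of deviations between −0.105 and 0.121. With so few libraries these cannot show whether replicates share animals or sorts. The block left other counts within 1.5 times except 3 lower in place of 6 in ORS against HFSC, or 3.90% against 20.8% of all genes. In ORS against HFSC the members higher, 11, were 21 with upper-quartile scaling, 18 without a filter, 20 with only the 2 populations fitted, 50 and 49 in TPM with pseudocounts of 1 and 0.1, 26 with TPM centred and 18 with the length trend removed. Of all genes 21.2%, 13.2%, 20.7%, 29.2%, 29.2%, 20.8% and 17.5% were higher in the same order. The lower ones, 6, were 3, 2, 2, 2, 2, 3 and 4 in that order. Of all genes 21.1%, 12.5%, 21.6%, 13.4%, 13.2%, 22.3% and 24.0% were then lower. With HFSC libraries left out 11 to 22 were higher, against 18.3% to 20.9% of all genes, and 2 or 3 lower, against 17.5% to 19.1%. In basal HB against HFSC the members higher, 5, were 11 with upper-quartile scaling, against 28.9% of all genes. They were 41 in TPM with either pseudocount, against 38.7% and 38.3%, 19 with TPM centred, against 25.6%, and 8 with the length trend removed, against 22.9%. The lower ones, 21, were 13 with upper-quartile scaling, against 21.6%, and 12 without a filter, against 13.5%. They were 5 in TPM with either pseudocount, against 14.7% and 14.4%, and 10 with TPM centred, against 24.2%. With HFSC libraries left out 7 to 13 were higher, against 25.3% to 27.3% of all genes, and 6 to 15 lower, against 19.1% to 20.1%. In basal HB against ORS the members lower, 7, were 11 in TPM with either pseudocount, against 10.3% and 9.89% of all genes. They were 11 with TPM centred, against 13.2%. Leaving out single HFSC libraries gave 3 to 8 lower, against 11.7% to 13.1%, and 0 higher, against 16.3% to 17.3%. With other libraries left out the members' median log2 change lay between −0.27 and −0.08. These last fits leave 1 library in a population, so only the change is given. Of 700 values for 35 named changes, 585 kept direction and call, 110 lost the call and 5 reversed: Mrpl24 in ORS against HFSC at 0.07349 and 0.07413 in TPM, and Mrpl48 at 0.4399 and 0.4457 in TPM and 0.271 with TPM centred. TPM centred, the length trend and the summed Mrpl23 and Mrpl48 rows were added after the data were seen. The cause was not tested.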
